A study of Mus musculus with 4 samples.

Results

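The core and naive pluripotency transcription factors are 10 genes, *Pou5f1*, *Sox2*, *Nanog*, *Esrrb*, *Klf2*, *Klf4*, *Klf5*, *Tbx3*, *Tcfcp2l1* and *Zfp42*, taken by name from the 37310 genes of an RNA-seq count table. They were listed for what the proteins do, with earlier results of these data already known. All 10 had a row in the table, counts in every library and an adjusted p. The RNA came from HATX, a line of mouse embryonic stem cells (mESCs) with an *Xist* transgene on the X chromosome that doxycycline switches on, described by the study as haploid. There are 2 libraries of the wild-type line (WT) and 2 of a knockout (KO) of *Spen* made in it, clone 2. The study speaks both of a full deletion and of one that removes the larger part of the gene. Spen is an RNA-binding repressor that *Xist* uses to silence genes. Both groups carry the transgene, the labels give no doxycycline or other treatment, and the study grew its mESCs in serum with the cytokine LIF. The KO group is 1 clone, so any other difference between that clone and the WT line is part of every comparison. Nothing in the labels says whether the libraries of a group came from separate cultures, so the p-values measure only the spread between these libraries.

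Pluripotent cells keep the ability to form every tissue of the embryo through a set of transcription factors that bind each other's genes and many shared targets. Oct4 (encoded by *Pou5f1*) and Sox2 bind side by side on a joint DNA site, and together with Nanog they form the core that marks pluripotent cells before and after implantation. The other factors are typical of the naive state, that of the preimplantation epiblast and of mESCs in culture. Esrrb is an orphan nuclear receptor, Klf2, Klf4 and Klf5 are Kruppel-like zinc finger proteins, Tbx3 is a T-box factor, and Tcfcp2l1 belongs to the CP2 family of the grainyhead factors. Several of these naive genes respond to LIF through Stat3. *Zfp42*, also known as *Rex1*, encodes a zinc finger protein and is widely used as a marker of naive cells.

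Total counts per library were between 36667685 and 61908422, and the 10 factors took between 0.376% and 0.435% of them. *Spen* itself had 3716 and 3047 normalized counts in WT against 7797 and 6242 in the libraries labelled KO, and those libraries are called KO-labelled throughout. The gene-level count does not check the label. The study describes more *Spen* mRNA where the protein is lost. Markers of mESCs were present in all 4 libraries. The 8 marker genes had summed levels of 2756 and 2886 in WT and between 3084 and 3142 in the KO-labelled libraries, where a level is the CPM of a gene divided by its exonic length in kilobases. The higher sum was that of *Dppa5a*, at mean levels of 1649 and 2014 and with copies over 98.2% of its exonic bases, while *Lin28a* (160 and 102) and *Fgf4* (106 and 91.9) were called lower and the other 5 were not called.

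Promoter sequence was read from RefSeq windows on GRCm38.p6, each running from 250 bases before to 50 bases after a transcription start. Windows were found for 8 of the 10 factors, 11 windows in all, and *Klf5* and *Tbx3* had none. Both strands were searched for ATGCAAA, the core of the octamer that Oct4 binds. It was present in 4 windows of 3 factors, *Nanog*, *Sox2* and *Zfp42*, and in 4.63% of all 32851 windows. The stretches below hold these matches, in capitals, because they are the places where the sequence read by one factor of the group lies in front of another. The stretch of *Tcfcp2l1* is shown beside them because that gene had the largest change among the factors with a window, and it has no capitals because none of the motifs searched was in its window.
Nanog, chr6:122707369-122707468, + strand: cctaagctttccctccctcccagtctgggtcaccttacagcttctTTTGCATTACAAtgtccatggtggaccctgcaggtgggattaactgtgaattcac
Sox2, chr3:34649851-34649950, + strand: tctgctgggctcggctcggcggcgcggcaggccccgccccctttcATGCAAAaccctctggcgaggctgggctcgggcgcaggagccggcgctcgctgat
Zfp42, chr8:43307140-43307239, - strand: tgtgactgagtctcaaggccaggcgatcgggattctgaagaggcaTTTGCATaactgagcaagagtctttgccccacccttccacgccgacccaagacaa
Tcfcp2l1, chr1:118627845-118627944, + strand: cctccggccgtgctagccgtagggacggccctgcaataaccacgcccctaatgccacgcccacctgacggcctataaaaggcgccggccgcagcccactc

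In *Nanog* the octamer core was followed after 1 base by ACAA, the start of a Sox site, which gives the side-by-side arrangement of Oct4 and Sox2. That arrangement (TTTGCAT, 1 base, then ACAA) was found in the windows of *Nanog* and of no other factor, and in 12 of all windows (0.0365%), which belong to 10 genes. It began at position -75 from the first *Nanog* start site and -151 from the second, being 1 place in the genome seen in both windows. The octamer core began at position -99 of *Sox2* and -185 of *Zfp42*. The Sox site ACAATG, which overlaps the joint arrangement in *Nanog*, was also in a window of *Pou5f1* and in a window of *Esrrb*, against 12.6% of all windows. The GC box GGGCGG, of the kind that Kruppel-like factors bind, was in windows of *Pou5f1*, *Sox2*, *Klf2*, *Klf4* and *Zfp42*, against 35.7% of all windows, with 4 matches in that of *Klf4*. AGGTCA, the half-site of nuclear receptors such as Esrrb, was in windows of *Pou5f1*, *Sox2* and *Nanog*, against 16.3% of all windows. These matches describe the letters of the windows only.

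Expression of the 10 factors was compared between KO-labelled and WT mESCs to see which part of the pluripotency network differs with the *Spen* genotype. *Tbx3* and *Tcfcp2l1* rose by 1.72-fold and 1.43-fold, and *Klf2* and *Zfp42* rose by less. *Klf5* fell. *Pou5f1*, *Sox2*, *Nanog*, *Esrrb* and *Klf4* were not called. Of the genes tested, 32.3% were called in either direction, as were 5 of the 10 factors. The count of 4 higher factors of 10 stands beside 16.4% of the 17710 genes tested that were called higher, and the count of 1 lower factor stands beside 15.8% called lower (DESeq2 Wald test, adjusted p under 0.05, no fold minimum). The study displayed pluripotency genes of these same libraries, so these counts are not independent evidence of a direction. At a fold change of at least 2 with an adjusted p under 0.001, the thresholds of the study, 0 of the 10 factors were called, beside 4.51% of the genes tested (1.36% higher and 3.15% lower). No factor reached that fold by DESeq2 or by edgeR, whose largest log2 fold change was 0.77 for *Tbx3*. The counts of KO-labelled and WT libraries did not overlap for 6 of the 10 factors, *Sox2*, *Klf2*, *Klf5*, *Tbx3*, *Tcfcp2l1* and *Zfp42*, beside 70.2% of the genes tested. The median log2 fold change of the factors was 0.12, with a range from -0.28 to 0.79, and that of all genes tested was 0.0049. The calls rest on small spreads, since the standard errors of 8 of the 10 log2 fold changes were 0.09 or below, close to the median of 0.0911 for genes with a mean of at least 1000 normalized counts.

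**Figure D1:**
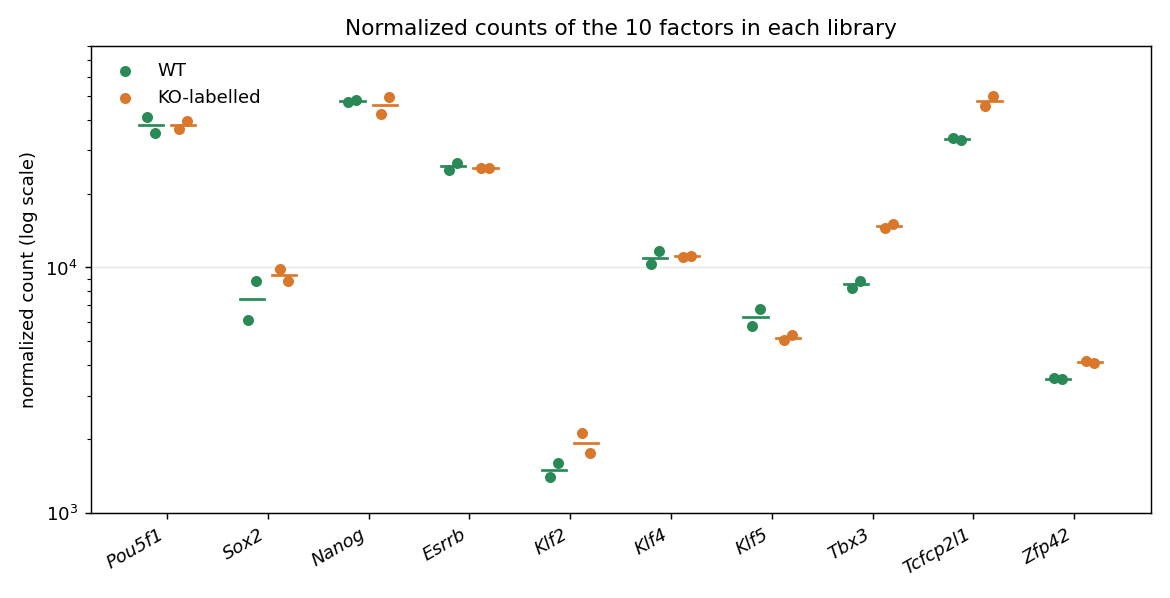
Normalized counts (library counts divided by the DESeq2 size factor, log axis) of the 10 factors, with a point for each library and a line at each group mean. The KO-labelled points of *Tbx3* (14478 and 14984) and *Tcfcp2l1* (45697 and 50152) lie above all WT points of the same gene, those of *Klf5* lie below, and the groups overlap for *Pou5f1*, *Nanog*, *Esrrb* and *Klf4*.

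Among the core factors, *Pou5f1* (ENSMUSG00000024406.9, mm9 chromosome 17, 35642982 to 35647721) had 40981 and 35210 normalized counts in WT and 36777 and 39707 in the KO-labelled ones. Both KO-labelled values lay between those of WT. Its log2 fold change was 0.01 ± 0.08 (SE), with a 95% interval from -0.15 to 0.16 (DESeq2 adjusted p = 0.972). On the fold scale the interval ran from 0.900 to 1.12, so a change of *Pou5f1* beyond those bounds was not seen at this depth. Copies covered 22.4% of its exonic bases. Its sign changed when WT replicate 2 (-0.10) or KO-labelled replicate 2 (-0.05) was left out, without a call.

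*Nanog*, which encodes the homeodomain factor of the core, lies on chromosome 6 (ENSMUSG00000012396.5, 122657507 to 122664651). It had 47454 and 47950 normalized counts in WT and 42237 and 49531 in the KO-labelled group. The WT values lay within the wider range of the KO-labelled ones, and the log2 fold change was -0.06 ± 0.08 (SE), with an interval from -0.21 to 0.10 and an adjusted p of 0.657. Without KO-labelled replicate 1, the lowest library, it was 0.06. The joint Oct4 and Sox2 arrangement printed above was thus in front of a gene without a called change. Copies of at least 75 bases at 95% identity or more covered 66.4% of the exonic bases of *Nanog*, with 2574 matches elsewhere in mm9, and how reads with several matches were counted is not given in the sources used here. Its level is therefore uncertain.

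*Sox2* (ENSMUSG00000074637.3, chromosome 3, 34548927 to 34551383) is a gene of 1 exon in the annotation. Its normalized counts were 6134 and 8770 in WT and 9855 and 8814 in the KO-labelled libraries. Both KO-labelled values were above both WT values, but WT replicate 2 and KO-labelled replicate 2 were nearly equal while WT replicate 1 stood well below the rest. The log2 fold change of 0.32 ± 0.27 (SE) had the widest interval of the 10 factors, from -0.20 to 0.85, and was not called (DESeq2 adjusted p = 0.401). The value depended on the WT libraries. It was 0.61 with an adjusted p of 9.01e-07 without WT replicate 2, and 0.09 and not called without WT replicate 1. edgeR gave 0.31 with an adjusted p of 0.0654.

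The strongest changes were in 2 naive factors. *Tbx3* (ENSMUSG00000018604.11, chromosome 5, 120120678 to 120134733) had 8245 and 8848 normalized counts in WT and 14478 and 14984 in the KO-labelled group. The gap between the groups was many times the gap within them. *Tbx3* rose by 0.79 ± 0.07 (SE) on the log2 scale, with an interval from 0.65 to 0.92 (DESeq2 adjusted p = 2.17e-26), and leaving out single libraries gave 0.74 to 0.84. On the fold scale the interval of 1.56 to 1.90 stayed below a doubling. No copies of its exons were found elsewhere, and 2.14% of its exonic bases overlap *Gm2301* on the other strand.

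*Tcfcp2l1*, now named *Tfcp2l1* (ENSMUSG00000026380.9, chromosome 1, 120524522 to 120581744), had 33850 and 33055 normalized counts in WT and 45697 and 50152 in the KO-labelled libraries. All KO-labelled values were above WT, and the WT libraries differed little. The rise was 0.52 ± 0.07 (SE) on the log2 scale, with an interval from 0.38 to 0.65 (adjusted p = 1.31e-12) and values of 0.45 to 0.59 when single libraries were left out. In counts this was the largest difference of the 10 factors. The promoter stretch of *Tcfcp2l1* printed above held none of the motifs searched, which says nothing about the factors that act on it.

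*Klf2* (ENSMUSG00000055148.7, chromosome 8, 74842932 to 74845555) had the lowest counts of the 10 factors, 1405 and 1590 in WT and 2110 and 1756 in the KO-labelled libraries after normalization. The groups did not overlap, although KO-labelled replicate 2 was closer to WT replicate 2 than to its own replicate. The log2 fold change of 0.37 ± 0.12 (SE) passed the test (interval 0.13 to 0.60, adjusted p = 0.00894). The call was lost without WT replicate 1 (0.29, adjusted p = 0.204) and without KO-labelled replicate 1 (0.24, adjusted p = 0.316).

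*Klf4* (ENSMUSG00000003032.7, chromosome 4, 55540013 to 55545347), one of the factors used to reprogram fibroblasts, had 10323 and 11635 normalized counts in WT and 11006 and 11170 in the KO-labelled group. The KO-labelled values lay between those of WT. For *Klf4* the log2 fold change was 0.01 ± 0.08 (SE) and its interval ran from -0.14 to 0.16 (adjusted p = 0.924), and it was -0.07 without WT replicate 1 and -0.00088 by edgeR. Copies covered 28.9% of its exonic bases.

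*Klf5* (ENSMUSG00000005148.7, chromosome 14, 99697910 to 99712624) was the factor that fell, from 5771 and 6759 normalized counts in WT to 5066 and 5287 in the KO-labelled group. The groups did not overlap, and WT replicate 1 was nearer to the KO-labelled libraries than to WT replicate 2. Its log2 fold change of -0.28 ± 0.09 (SE) had an interval from -0.45 to -0.10 (DESeq2 adjusted p = 0.00811). It was not called without WT replicate 2 (-0.15, adjusted p = 0.355), KO-labelled replicate 1 (-0.24, 0.159) or KO-labelled replicate 2 (-0.30, 0.0665). The 3 Kruppel-like factors thus had a called rise, no call and a called fall, with *Klf2* and *Klf5* intervals that do not overlap.

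*Esrrb* (ENSMUSG00000021255.10, chromosome 12, 87702067 to 87862578) had 25059 and 26713 normalized counts in WT and 25539 and 25349 in the KO-labelled group. The KO-labelled values again lay between those of WT. *Esrrb* had a log2 fold change of -0.02 ± 0.07 (SE) and an interval from -0.15 to 0.10 (adjusted p = 0.830). It was 0.03 without WT replicate 2.

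*Zfp42* (ENSMUSG00000051176.5, chromosome 8, 44380422 to 44392363) had 3535 and 3500 normalized counts in WT and 4159 and 4093 in the KO-labelled group. The libraries of each group were close together and the groups were apart. *Zfp42* rose by 0.23 ± 0.08 (SE) on the log2 scale, and the interval ran from 0.07 to 0.39 and an adjusted p of 0.0149. Leaving out any of the 4 libraries kept it between 0.23 and 0.25 but gave adjusted p-values between 0.118 and 0.167. Copies covered 69.9% of its exonic bases, so its level and change are uncertain in the same way as those of *Nanog*. Of the 3 factors with an octamer core in a promoter window, *Zfp42* was called higher, and *Nanog* and *Sox2* were not called.

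The genes of whole chromosomes differed between the groups, and some factors lie on chromosomes whose median gene was shifted. The median log2 fold change was -0.32 for genes of chromosome 12, which holds *Esrrb*, -0.21 for chromosome 4, which holds *Klf4*, and -0.14 for chromosome 17, which holds *Pou5f1*. The chromosomes of the other 7 factors had medians from 0.06 to 0.10. With chromosome medians removed, *Esrrb* was at 0.29 (DESeq2 adjusted p = 7.85e-05) and *Klf4* at 0.22 (adjusted p = 0.0192), and both were then called higher. *Pou5f1* was at 0.14 and still not called (adjusted p = 0.202). *Klf2* (0.26, adjusted p = 0.0868) and *Zfp42* (0.13, adjusted p = 0.255) were no longer called, while *Tbx3* at 0.73, *Tcfcp2l1* at 0.42 and *Klf5* at -0.36 kept their calls. The flat values of *Esrrb* and *Klf4* are therefore flat relative to the whole genome and above the median of their own chromosomes. The number of copies of each chromosome was not measured.

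**Figure D2:**
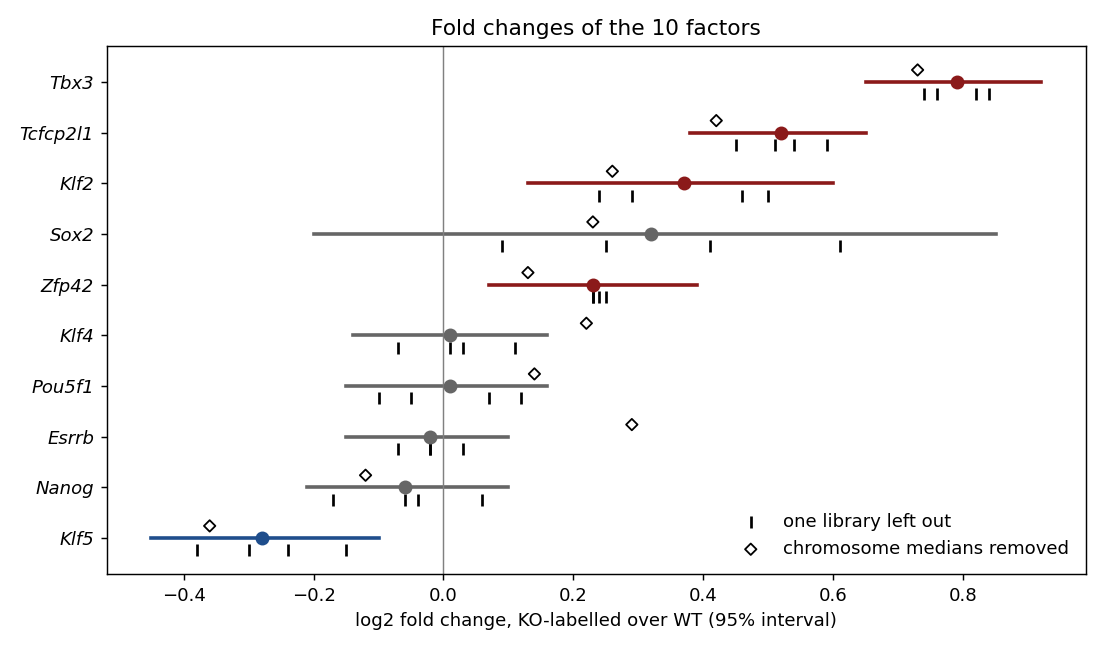
Log2 fold changes of KO-labelled over WT libraries for the 10 factors (points) with 95% intervals (lines), in red where called higher, blue where called lower and grey where not called, with ticks for fits that leave out 1 library and diamonds for the fit with chromosome medians removed. *Tbx3* at 0.79 and *Tcfcp2l1* at 0.52 stay well above 0 in every fit drawn, *Sox2* has the widest interval, and the diamonds of *Esrrb* and *Klf4* lie to the right of their intervals.

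Levels of different genes were compared as CPM per kilobase of exonic length, where CPM counts only reads in genes. On this scale *Nanog* (442 ± 8.94 in WT and 426 ± 42.8 in the KO-labelled libraries, SD, n = 2 each) and *Pou5f1* (350 ± 33.0 and 353 ± 14.9) stood far above the other 8 factors in both groups. *Nanog* ranked between 124 and 148 among all genes and *Pou5f1* between 166 and 203. Their order depends on the length used. With the longest transcript in place of all exonic bases, *Pou5f1* had a mean of 589 over the 4 libraries and *Nanog* 440.

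In WT the core pair was followed by *Esrrb* at 88.9 ± 5.16, whose libraries did not overlap those of the next gene. *Klf5* (75.6 ± 9.40), *Tcfcp2l1* (74.9 ± 0.294), *Klf4* (74.5 ± 7.25) and *Sox2* (63.1 ± 16.6) came next, and neighbours among these 4 overlapped. *Zfp42* (40.6 ± 0.241), *Tbx3* (33.1 ± 2.08) and *Klf2* (16.8 ± 1.68) closed the order without overlap. The level of *Sox2* mRNA was thus several times lower than that of *Pou5f1* in every library.

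In the KO-labelled libraries *Tcfcp2l1*, at 108 ± 5.80, moved from the fifth to the third place, ahead of *Esrrb* at 86.5 and 88.6. *Sox2* (79.1 ± 7.17) and *Klf4* (75.4 ± 0.103) overlapped, and *Klf5* (62.6 ± 1.15) lay below them. *Tbx3* at 57.1 ± 0.714 passed *Zfp42* at 47.7 ± 1.11, and *Klf2* stayed last at 21.8 ± 3.08. Among all genes *Tbx3* moved from ranks 2151 and 2002 to ranks 1262 and 1264. With the longest transcript the mean level of *Esrrb* over the 4 libraries was 124 in place of 88.2, so its place beside *Tcfcp2l1* (91.2 with either length) also depends on the length. Summed over the 10 factors, levels were 1247 and 1272 in WT and between 1280 and 1355 in the KO-labelled libraries, most of it *Nanog* and *Pou5f1*.

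**Figure D3:**
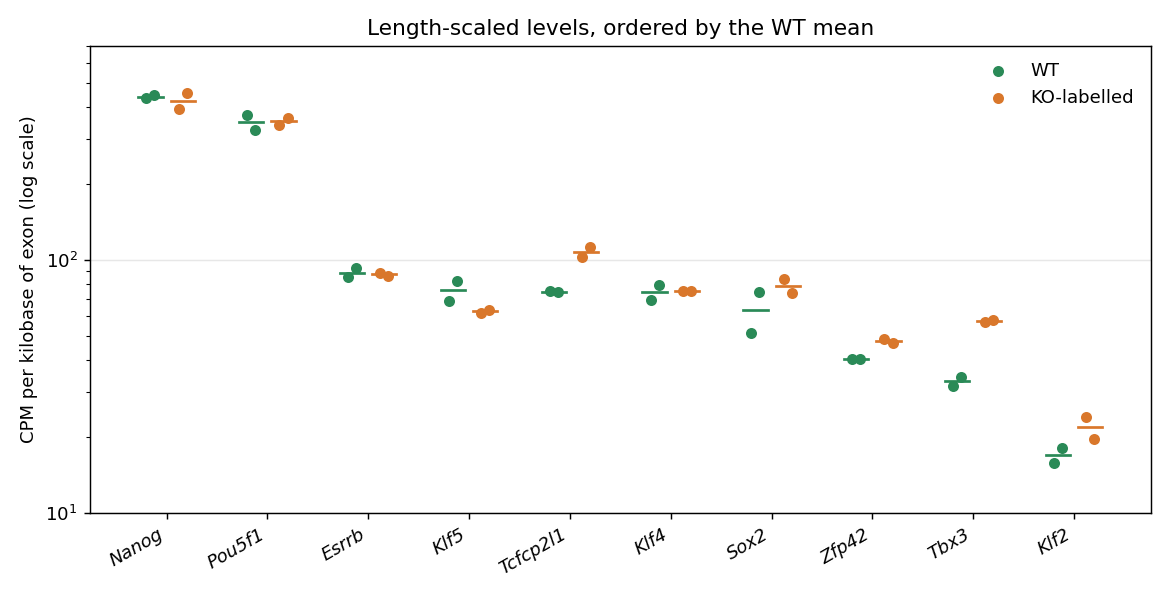
Levels of the 10 factors in each library, in CPM per kilobase of exon (log axis), ordered by the WT mean, with group means as lines. *Nanog* and *Pou5f1* lie above 300 in every library, *Tcfcp2l1* moves from 74.9 to 108, and *Tbx3* from 33.1 to 57.1.

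The ratio of each factor to *Pou5f1* within a library does not depend on how libraries were scaled. The log2 ratio of *Tcfcp2l1* to *Pou5f1* in normalized counts was -0.28 and -0.09 in WT and 0.31 and 0.34 in the KO-labelled libraries. These counts are not scaled for length. Per kilobase, *Tcfcp2l1* stayed below *Pou5f1*, at 74.9 against 350 in WT and 108 against 353 in the KO-labelled libraries. The log2 ratio of *Tbx3* to *Pou5f1* went from -2.31 and -1.99 to -1.34 and -1.41. The difference between the group means was 0.78 for *Tbx3* with a pooled SD of 0.16 and 0.51 for *Tcfcp2l1* with a pooled SD of 0.09. For *Zfp42* it was 0.22 with a pooled SD of 0.12. For *Nanog* (-0.07, pooled SD 0.13), *Esrrb* (-0.03, 0.17) and *Klf4* (0.01, 0.20) the difference was smaller than the spread, and for *Sox2* (0.34, 0.39) too. Those of *Klf2* (0.36, 0.27) and *Klf5* (-0.28, 0.22) were a little larger than the spread.

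The proteins that work with these factors formed a list of 16 genes, of which 6 (37.5%) were called higher and 4 (25.0%) lower, beside 16.4% and 15.8% of all genes tested, with a median log2 fold change of 0.09. *Nr5a2*, a nuclear receptor that activates *Pou5f1*, rose by 0.52 ± 0.08 (SE, adjusted p = 5.04e-10). *Sall4*, a zinc finger partner of Oct4, rose by 0.40 (3.00e-09), *Ncoa3*, a coactivator that works with Esrrb, by 0.42 (2.00e-07), and *Nacc1*, a Nanog-associated protein, by 0.42 (2.85e-07), with copies over 62.4% of the exonic bases of *Nacc1*. *Mycn*, a Myc-family growth regulator, had 12740 and 14400 normalized counts in WT and 4312 and 4816 in the KO-labelled libraries, and its log2 fold change of -1.57 ± 0.09 (SE, DESeq2 adjusted p = 4.99e-73) was the largest of the list. It lies on chromosome 12 with *Esrrb*, and its log2 fold change minus the median of that chromosome was -1.25. *Gbx2* (-0.79), a LIF and Stat3 target, *Nr0b1* (-0.45), a repressor that binds Oct4, and *Tfe3* (-0.36), which promotes *Esrrb* expression, fell as well. A gene on the other strand overlaps 32.4% of the exonic bases of *Gbx2*. *Stat3* itself was not called (0.07, adjusted p = 0.549). The median of the list was -0.01 without WT replicate 1 and 0.21 without WT replicate 2.

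Genes that the factors activate in mESCs made a list of 18, of which 3 (16.7%) were called higher and 5 (27.8%) lower, with a median of -0.03. The share called higher was close to the 16.4% of all genes tested, and 15.8% of those were called lower. *Eras*, a Ras-like growth gene of mESCs, rose by 0.65 ± 0.08 (SE, adjusted p = 4.03e-13), and a gene on the other strand overlaps 12.5% of its exonic bases. *Dppa5a* (0.28, adjusted p = 1.77e-04) and *Rest* (0.16, adjusted p = 0.0468) were also called higher, though *Dppa5a* was no longer called with chromosome medians removed (0.15, adjusted p = 0.0833), and the *Rest* call was lost in every other fit tried. *Jam2*, a junctional adhesion molecule, had 5686 and 5879 normalized counts in WT and 2345 and 2272 in the KO-labelled libraries, a log2 fold change of -1.33 ± 0.08 (SE, adjusted p = 1.06e-58). *Lin28a*, which blocks maturation of let-7 microRNAs, fell by 0.65 (2.82e-20), *Dppa3*, a maternal factor also called Stella, by 0.55 (4.72e-09) and *Gdf3*, a growth factor of the TGF-beta family, by 0.25 (0.00206). The *Gdf3* call was lost when any of the 4 libraries was left out (adjusted p from 0.0622 to 0.0842), and copies cover 87.6% of the exonic bases of *Dppa3*. *Utf1* was at 0.15 and *Fbxo15* at 0.05 without a call, and *Fgf4* was called lower at -0.21 (adjusted p = 0.0131). Without WT replicate 1 or without KO-labelled replicate 1, 3 genes of the list were called lower.

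Other genes of the families of the 10 factors were mostly low, and of 39 matched genes 28 had an adjusted p, with 3 (10.7%) called higher, 4 (14.3%) lower and a median of 0.01. Both shares were below those of all genes tested, 16.4% and 15.8%, and edgeR called 5 higher and 9 lower. Among the Kruppel-like genes *Klf9* was higher (0.49, adjusted p = 9.12e-11), and *Klf6* (-0.72), *Klf7* (-1.08) and *Klf11* (-0.33) were lower. Genes on the other strand overlap 39.4% of the exonic bases of *Klf7* and 22.5% of those of *Pou2f1*. With chromosome medians removed *Klf9* was at 0.11 and *Klf11* at -0.01, neither called. Of the POU genes, *Pou2f1* (0.44) and *Pou2f2* (1.34) were higher and *Pou2f3* (-3.15) was lower, the last from 137 and 140 to 13.9 and 17.2 normalized counts. The calls of *Pou2f2* (adjusted p from 0.0716 to 0.250) and *Klf11* (from 0.0593 to 0.245) were lost when any of the 4 libraries was left out. The highest level of a POU gene other than *Pou5f1* was that of *Pou2f1*, with a WT mean of 6.60 CPM per kilobase beside 350 for *Pou5f1*. *Esrra* was at mean levels of 9.55 in WT and 9.86 in KO-labelled libraries and *Esrrg* at or near 0, against 88.9 and 87.6 for *Esrrb*. *Pou3f1* was listed at 0 in all 4 libraries, but the annotation holds it under a pair of identifiers that overlap in full, and its counts are uncertain. The median was -0.08 without WT replicate 1 and 0.09 without WT replicate 2.

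Markers of the primed state, that of the epiblast after implantation, gave 0 genes called higher and 2 (25.0%) called lower of 8 with an adjusted p, beside 16.4% and 15.8% of all genes tested, with a median of -0.26 (DESeq2). At an unadjusted p under 0.05, and by edgeR, 0 were higher. *Dnmt3b*, a de novo DNA methyltransferase, had 18744 and 19393 normalized counts in WT and 10685 and 11316 in the KO-labelled libraries, a log2 fold change of -0.79 ± 0.07 (SE, DESeq2 adjusted p = 3.18e-29). *Pim2*, a kinase gene, fell by 0.32 (adjusted p = 0.00167), with copies over 38.4% of its exonic bases and a call that was lost without WT replicate 1, KO-labelled replicate 1 or KO-labelled replicate 2. *Otx2* (-0.19) and *Fgf5* (0.11) were not called, and *Fgf5* had at most 28.3 normalized counts in any library. edgeR called 4 genes of this list lower.

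**Figure D4:**
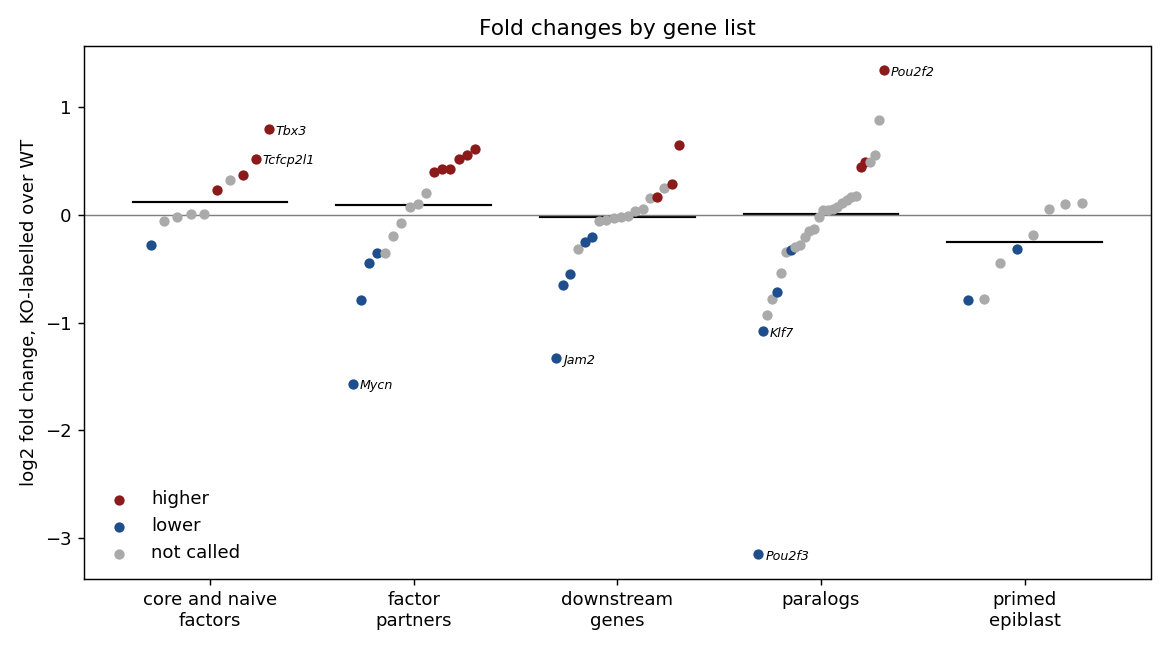
Log2 fold changes of KO-labelled over WT libraries for genes with an adjusted p in 5 lists, a point for each gene, in red where called higher, blue where called lower and grey where not called, with a black line at each median. The factors run from -0.28 to 0.79, their partners from -1.57 to 0.61, downstream genes from -1.33 to 0.65, family members from -3.15 to 1.34 and primed markers from -0.79 to 0.11.

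Markers of differentiated cells were low beside the factors. Their summed levels differed between the groups, while many single markers were not called. Most of the called ones were lower, with log2 fold changes as low as -3.74 for *T*, -2.73 for *Gata3* and -2.33 for *Pax6*. Only *Ascl2* (0.85) and *Thy1* (1.59) were called higher. In bulk RNA, fewer cells of a type and less RNA per cell cannot be told apart. The counts of called markers below stand beside 16.4% of all genes tested that were called higher and 15.8% called lower, and each list is short. Summed levels in CPM per kilobase were 2.70 to 2.98 in WT and 1.17 to 1.43 in the KO-labelled libraries for 7 primitive endoderm markers, with 2 of 5 tested genes called lower and *Sox7* the highest by mean in each group. For 6 trophoblast markers they were 6.54 to 6.70 and 4.43 to 4.46, with 3 of 5 called lower and 1, *Ascl2*, higher. *Eomes* was the highest of these in WT and *Ascl2* in the KO-labelled libraries. For 5 mesoderm markers, which include *Eomes* again, they were 7.68 to 8.13 and 2.90 to 2.98, with 2 of 4 called lower, *T* the highest in WT and *Eomes* in the KO-labelled libraries. For the neuroectoderm markers *Pax6* and *Nes* they were 3.07 to 3.50 and 2.39 to 2.43, with *Pax6* called lower and *Nes* the highest. For 6 fibroblast markers they were 2.40 to 2.82 and 4.96 to 5.49, with 1 called higher, 1 lower and *Thy1* the highest. The higher sum was that of *Thy1*, at mean levels of 1.53 and 4.62, while *Twist1* was lower, at 0.953 and 0.422. No marker was at 0 in all 4 libraries, and *Elf5*, *Foxa2*, *Mesp1* and *Postn* were at 0 in at least 1. These sums are below the level of *Klf2*, the lowest of the 10 factors at 16.8 in WT, and the WT mesoderm sum is the nearest to it. The part of these markers in the changes of *Tbx3*, *Tcfcp2l1*, *Klf2*, *Zfp42* and *Klf5* was not tested.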

How the data were processed

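Total RNA of WT and *Spen* KO clone 2 mESCs was depleted of ribosomal RNA and sequenced as stranded, paired-end libraries. The authors aligned them to mm9 with STAR and counted them over the genes of GENCODE vM1 with featureCounts, and deposited the raw counts. Of the values from 1 to 20, 65.3% were even, and whether the mates of a pair were counted separately is not given, so counts are not taken as independent fragments. Tool versions, the strand setting and the treatment of reads with several matches are not given in the sources used here, so genes with copies or overlapping genes are uncertain. The 10 factors and all lists were chosen with earlier results of these data known.

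Genes were matched by identifier to the GENCODE vM1 annotation, which held all 37310. *Sox1* was not analysed here. Groups and replicate numbers came from the labels, and columns were matched to samples by name. DESeq2 1.42.0 in R 4.3.3 was fitted to the whole table with group alone as the design, and p-values were adjusted (Benjamini-Hochberg) over the 17710 genes kept by independent filtering. Called means an adjusted p under 0.05. Within lists, up to 4 genes per direction with the smallest adjusted p were named (mean of 50 or more, no overlap of the KO-labelled libraries with the WT range). In each marker list of another cell type, the gene with the highest level in any library was named. *Stat3*, *Utf1*, *Fbxo15*, *Fgf4*, *Otx2*, *Fgf5*, *Esrra*, *Esrrg* and *Pou3f1* fell outside these rules and were named after their values were seen. So were the markers *Elf5*, *Foxa2*, *Mesp1*, *Postn*, *Gata3*, *Pax6*, *Ascl2* and *Twist1*. Both fits were tested on simulated data. Alternatives were TMM size factors, a filter of 10 counts in 2 libraries, edgeR 4.0.16, the replicate number as a block, chromosome medians removed (genes with a mean of at least 50), each library left out, another length and another reference for ratios. Exon copies were searched with BLAST 2.17.0 (exact seed of 40, at least 75 bases, 95% identity). Replicates differed by more than sampling noise, with a chi-square per degree of freedom of 40.6 in WT and 15.6 in the KO-labelled group. Intervals of 95% rest on 2 libraries per group.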

Additional observations from a re-analysis of the deposited data

How the results depend on the processing

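With 2 libraries per group and 1 KO clone, small changes of the factors depend on single libraries. The rises of *Tbx3* and *Tcfcp2l1* and the lack of a call for *Pou5f1* and *Nanog* held in every fit run. The causes of the changes below were not tested, except that leaving out a library leaves fewer samples.

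Leaving out single libraries gave 2 to 4 factors higher, 0 to 1 lower and a median log2 fold change of 0.11 to 0.17. Log2 fold changes were then -0.10 to 0.12 for *Pou5f1*, 0.09 to 0.61 for *Sox2*, -0.17 to 0.06 for *Nanog*, -0.07 to 0.03 for *Esrrb*, 0.24 to 0.50 for *Klf2*, -0.07 to 0.11 for *Klf4*, -0.38 to -0.15 for *Klf5* and 0.23 to 0.25 for *Zfp42*. Medians ranged from -0.01 to 0.21 for factor partners, -0.05 to 0.02 for downstream genes, -0.08 to 0.09 for family members and -0.28 to -0.17 for primed markers. There were 3 to 4 downstream genes and 1 to 2 primed markers called lower.

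Same-numbered libraries did not deviate together (correlation -0.0174), and no label ties the numbers. That correlation cannot show whether the libraries were prepared as pairs, and the main design used group alone. With the replicate block, 2 factors were higher and 0 lower, with *Klf2* at 0.36 (DESeq2 adjusted p = 0.0638), *Klf5* at -0.27 (0.0522) and *Zfp42* at 0.23 (0.125), and 3 downstream genes were lower. With chromosome medians removed, the median of the factors was 0.23, *Esrrb* was at 0.29, *Klf2* at 0.26, *Klf4* at 0.22 and *Zfp42* at 0.13, and the medians of downstream genes and family members were -0.10 and -0.02. With the low-count filter *Pou5f1* was at -0.01 and the family members at a median of -0.03. edgeR gave -0.01 for *Pou5f1*, -0.00088 for *Klf4*, and 5 family members higher and 9 lower with a median of -0.03, and 4 primed markers lower. The stricter threshold of the study left 0 factors higher and 0 lower. The longest transcript gave mean levels of 589 for *Pou5f1*, 124 for *Esrrb* and 48.6 for *Tbx3*. Relative to the geometric mean of the 10 factors, log2 ratios differed by -0.25 for *Nanog*, -0.22 for *Esrrb*, 0.59 for *Tbx3*, 0.33 for *Tcfcp2l1*, 0.04 for *Zfp42*, 0.15 for *Sox2*, 0.17 for *Klf2*, -0.17 for *Klf4* and -0.46 for *Klf5*.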
